A study of Rattus norvegicus with 24 samples.

Results

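Genes for the proteins of the cytosolic ribosome were followed in the heart of rats fed rotenone, which comes from plant roots and inhibits the first complex of the mitochondrial respiratory chain. They were found by name, as transcript clusters (the array's units of measurement) annotated with exactly 1 symbol that starts with Rpl or Rps and a number, or with Rplp0, Rplp1, Rplp2 or Rpsa. Pseudogenes, numbered copies, Rps19bp and the Rps6k kinases were left out, and of several transcript clusters for a gene the one with the highest mean was kept. This gave 71 genes, 44 of the large and 27 of the small ribosomal subunit, among 22093 genes that had a symbol on the array. The RNA came from left ventricle apex, and the 24 animals were RccHan Wistar males, aged 7 to 8 weeks when they were assigned to the groups. The groups were rotenone at 400 ppm in the feed for 1, 3 or 14 days and, for each of these days, a control group on untreated feed, with 4 rats per group and 1 Affymetrix Rat Transcriptome Array per rat. The study describes no pair-fed animals and its rotenone rats weighed less, so rotenone itself and lower feed intake cannot be told apart.

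Cytosolic ribosomes translate the messenger RNAs of the nucleus, and each is built from ribosomal RNA and a fixed set of small basic proteins, most of them present once per ribosome. The small subunit reads the message, and the large subunit joins amino acids and releases the chain through its exit tunnel. In mammals the messages of nearly all these proteins begin with a run of pyrimidines, called a terminal oligopyrimidine or TOP start, through which the kinase complex mTORC1 and the protein Larp1 control their translation and stability as a group.

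The starts of the genes are shown because members of this set changed together, and the TOP run is the element they are known to share. The promoter table of RefSeq (build GRCr8) held 61 of the 71 genes. A run was counted where at least 5 letters in a row were C or T on the sense strand and the run reached within 5 bases of the annotated start. By this rule, 47 of 61 (77%) had a run, against 29.3% of 33469 promoters in the table. A start with C followed by 4 pyrimidines was found in 24 of 61 (39.3%), against 2.63% of all promoters. The median change at day 14 was 0.49 log2 units in the genes with a run and 0.49 in the 14 without. The 6 members with the largest and the 6 with the smallest change at day 14 among these 61 are given below, 15 bases on each side of the start, with the run in capitals where the rule found one.
Rps19 (chr1:89608673-89608702, + strand): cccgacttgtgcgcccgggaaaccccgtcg
Rpl37a (chr9:81748076-81748105, + strand): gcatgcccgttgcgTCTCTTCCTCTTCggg
Rpl9 (chr14:43247575-43247604, + strand): gacgaaggacgTTCTCTCTTTgccccatct
Rps15a (chr1:181860270-181860299, - strand): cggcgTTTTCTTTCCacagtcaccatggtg
Rps12 (chr1:23500060-23500089, + strand): gcacagaagcccagcagagcgcttaaatac
Rps18 (chr20:4933730-4933759, + strand): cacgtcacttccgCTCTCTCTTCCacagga
Rpl6 (chr12:41011676-41011705, - strand): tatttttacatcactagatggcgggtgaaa
Rpl38 (chr10:100200420-100200449, + strand): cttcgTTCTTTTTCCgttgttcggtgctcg
Rpl18 (chr1:105325255-105325284, + strand): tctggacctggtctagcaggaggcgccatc
Rpl28 (chr1:78083518-78083547, - strand): ccccgcccctagtgTCTTTCTTTCCgtctc
Rpl31 (chr9:49143096-49143125, + strand): ccacaatccctcgcgCCTTTCCTTTCCaac
Rps4y2 (chr4:183000898-183000927, + strand): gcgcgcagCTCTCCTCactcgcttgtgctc
Runs stood at both ends of the order: Rpl37a and Rpl9 on one side and Rpl28 and Rpl31 on the other all carry one. A start without capitals says only that no run met the rule, and such a window can still hold C and T letters in a row farther from the start, as that of Rpl6 does.

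Values are log2 of the deposited intensities, and a change is the mean of the rotenone rats minus that of the control rats of the same day, ± its standard error (SE) in the model, with 4 rats in each group. Adjusted p-values come from limma with Benjamini-Hochberg adjustment over 68842 transcript clusters, and a gene was called at adjusted p 0.05. Array medians lay between 4.94 and 5.19 log2 units, and the mean correlation of an array with the rest of its group was 0.9864 to 0.9904. Precision is limited by the number of arrays. Of all transcript clusters, 16.1% lay above a background bound of 8.15 log2 units, which 95% of the negative control probes did not reach. Of the 71 genes, 58 lay above it and 13 below, so the size of a change in those 13 is uncertain. The heart label was checked on 7 cardiomyocyte genes, which had a mean between 17.32 and 17.43 on every array. None of them was called by limma on any day, and 1 reached an unadjusted p under 0.05, at day 14.

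The ribosomal protein genes were close to the control level after 1 day of rotenone, and they were higher after 3 and 14 days. The mean over the 71 genes was 11.29 ± 0.10 log2 units in rotenone rats and 11.38 ± 0.04 in control rats at day 1 (SD, n = 4 each). At day 3 it was 11.54 ± 0.08 in rotenone rats and 11.24 ± 0.14 in control rats. At day 14 it was 11.81 ± 0.26 in rotenone rats and 11.35 ± 0.21 in control rats. The 4 rotenone rats lay above all 4 control rats at day 3. At day 14 rotenone rats 2, 3 and 4 had means of 12.03, 11.89 and 11.89 and lay above all controls, while rotenone rat 1, at 11.43, lay among control rats 1 to 4 at 11.57, 11.16, 11.18 and 11.48.

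**Figure D1:**
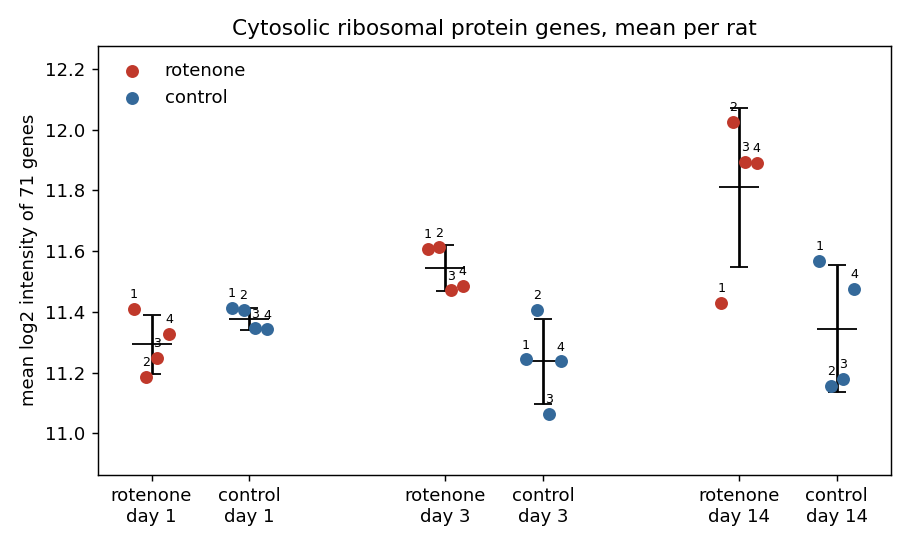
Mean log2 intensity of the 71 ribosomal protein genes in each rat (points, numbered by rat), for rotenone and control groups at days 1, 3 and 14, with the group mean and SD (black lines, n = 4). Groups do not overlap at day 3, and at day 14 rotenone rat 1 (11.43) lies within the control range of 11.16 to 11.57.

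After 1 day, 0 of 71 genes were called by limma, and 0 were higher and 2 lower at an unadjusted p under 0.05. In all transcript clusters 0.49% were called. At an unadjusted p under 0.05, 2982 of all 68842 were higher and 2724 lower. Of the 11070 above the bound, 606 were higher and 1364 lower at that p. The median change was -0.10, with 17 genes positive and 54 negative. This was close to the median of all transcript clusters above the bound, -0.11, of which 30.8% were positive, and the sign of the members' median was lost with quantile normalization, where it was 0.01. The values of 15 genes were lower in all 4 rotenone rats than in any control rat. Those of 1 gene, Rps27, which lay below the bound, were higher. Such separation, lower and higher, held for 2.88% and 2.84% of all transcript clusters and for 9.39% and 4.89% of those above the bound.

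Rpl8, a protein of the large subunit's catalytic core, had 13.06, 13.02, 12.90 and 13.07 log2 units in rotenone rats at day 1, against 13.59, 13.37, 13.37 and 13.27 in control rats. All rotenone values lay below the controls, and the change of -0.39 ± 0.19 did not pass (adjusted p = 0.597). Rpl4, whose loop lines the exit tunnel, had 16.63, 16.41, 16.41 and 16.62 in rotenone rats and 16.78, 16.80, 16.66 and 16.78 in control rats. Its change was -0.24 ± 0.11 (adjusted p = 0.601), again with no overlap.

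After 3 days the genes stood higher as a set, but nearly all single changes missed the threshold. Rpl23a was the 1 gene called higher, and 0 were called lower (0 also at an unadjusted p under 0.05), where 0.291% of all transcript clusters were called higher. The median change was 0.31, against 0.03 over all transcript clusters and 0.04 over those above the bound. A positive change was seen in 67 of 71 genes (57.9% of transcript clusters above the bound), and 45 were higher at an unadjusted p under 0.05. At that p, 3901 of all 68842 transcript clusters and 1286 of the 11070 above the bound were higher. In 37 genes each rotenone rat lay above each control rat, against 3.72% of all transcript clusters and 9.01% of those above the bound. The exceptions to the positive sign were Rpl18, Rpl31, Rps29 and Rps4y2, of which Rpl18 and Rps4y2 lay below the bound.

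Rpl23a, which docks the signal recognition particle at the tunnel exit, had 13.29, 13.29, 13.09 and 13.31 log2 units in rotenone rats at day 3, against 12.72, 12.91, 12.65 and 12.89 in control rats. The groups did not overlap, and the change of 0.45 ± 0.11 passed narrowly (adjusted p = 0.0458). The call was lost when any array of that day other than that of rotenone rat 3 was left out, so day 3 had 0 called genes in 7 of 8 such fits. It was also lost with equal array medians, over all or over bright transcript clusters, with the rat number as a block and with only the 8 arrays of the day.

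Larger differences than that of Rpl23a at day 3 came with a wider spread. Rps20, in the head of the small subunit, had 15.20, 15.09, 14.98 and 14.91 in rotenone rats and 14.40, 14.53, 14.07 and 14.46 in control rats, a change of 0.68 ± 0.17 (adjusted p = 0.0622). Rps14, of the small subunit's platform, had 12.37, 12.21, 11.98 and 12.08 in rotenone rats and 11.52, 11.68, 11.52 and 11.46 in control rats, a change of 0.62 ± 0.16 (adjusted p = 0.066). Neither gene overlapped between the groups.

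**Figure D2:**
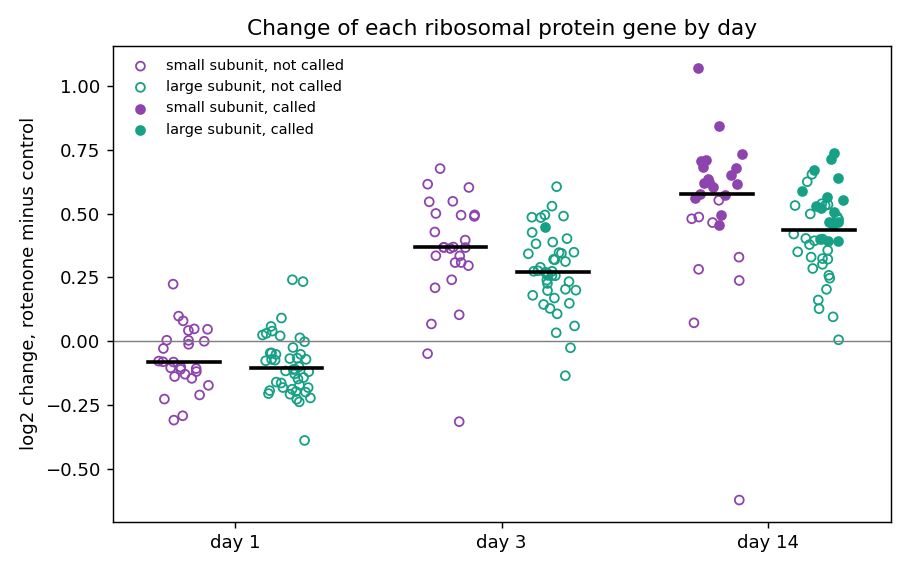
Log2 change (rotenone minus control) of each of the 71 genes at days 1, 3 and 14, small subunit left and large subunit right at each day. Filled points are called at adjusted p 0.05 and black lines are medians: 0 genes were called at day 1, 1 at day 3 and 34 at day 14, and the day 1 median (-0.10 over both subunits) turns to 0.01 with quantile normalization.

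After 14 days, 34 of 71 genes rose and 0 fell in limma's test, where 1.4% of all transcript clusters and 5.11% of those above the bound were called higher and 1.49% of all were called lower. The median change was 0.49, or 1.4-fold, against 0.04 over all transcript clusters. A positive change was seen in 70 of 71 genes (55.9% of transcript clusters above the bound), and in 69 or 70 under every scaling tried. At an unadjusted p under 0.05, 62 were higher and 1 was lower. Of all 68842 transcript clusters, 6315 were higher and 3836 lower at that p. Of the 11070 above the bound, 2178 were higher and 1586 lower. Only 10 genes had all 4 rotenone rats above all 4 controls (4.58% of all transcript clusters and 10.2% of those above the bound). Leaving out rotenone rat 1 gave 54 called genes, the 34 included, with 2.56% of all transcript clusters called higher.

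The count of calls rested on other single rats too. The number called higher was 6, 10 and 11 without rotenone rats 2, 3 and 4, and 38, 15, 11 and 27 without control rats 1, 2, 3 and 4, with 1 called lower without control rat 2. The share of all transcript clusters called higher was 0.651%, 0.514% and 0.548% without these rotenone rats. Without the control rats it was 1.41%, 0.805%, 0.659% and 0.815%. The count of member genes was 5 with equal array medians (0.459% of all transcript clusters called higher), and 0 in a fit of only the 8 arrays of that day (0.045%). In the latter fit, 46 genes were higher at an unadjusted p under 0.05 and the smallest adjusted p was 0.127. Rps20, Rps25, Rps12, Rpl23a, Rps4x and Rps9 were called in each of the 8 fits with 1 array left out, and the other ribosomal protein genes named below as risen lost the call in 1 to 7 of the 8. The median change stayed between 0.42 and 0.63 in these fits.

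Among proteins of the small subunit, 18 of 27 rose at day 14, with a median change of 0.58. Rps20 had the largest change of the 71 genes. It had 14.95, 15.90, 15.70 and 15.62 log2 units in rotenone rats, against 14.80, 14.16, 14.26 and 14.64 in control rats, which did not overlap. The change was 1.07 ± 0.17, or 2.1-fold (adjusted p = 0.00103), and Rps20 was the 1 member past the 1.8-fold size that the study's methods use. Its 2 further transcript clusters changed by 0.90 and 0.93 (adjusted p = 0.00134 and 0.00611).

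Rps19, which is mutated in human Diamond-Blackfan anaemia, had 12.83, 13.86, 13.61 and 13.62 in rotenone rats at day 14, against 12.95, 12.43, 12.44 and 12.71 in control rats. Rotenone rat 1 lay among the controls and the other 3 lay above them. The change was 0.84 ± 0.18 (adjusted p = 0.0116).

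Rps25, which is needed for translation from internal entry sites, had 11.05, 11.56, 11.70 and 11.32 in rotenone rats, against 11.03, 10.47, 10.57 and 10.63 in control rats. The groups were just separate, and the change was 0.74 ± 0.14 (adjusted p = 0.00621). Rps12, at the beak of the subunit, had 7.45, 8.24, 8.03 and 8.04 in rotenone rats, against 7.47, 7.18, 7.04 and 7.23 in control rats. Its mean lay below the bound, rotenone rat 1 overlapped the controls, and the change was 0.71 ± 0.14 (adjusted p = 0.00552).

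Rps23, which sits at the decoding centre, had 10.37, 10.98, 10.74 and 10.82 in rotenone rats, against 10.29, 10.12, 10.00 and 10.22 in control rats, with no overlap and a change of 0.57 ± 0.12 (adjusted p = 0.0117). Rps3, at the channel where the message enters, had 9.99, 10.61, 10.34 and 10.46 in rotenone rats, against 10.06, 9.73, 9.59 and 10.03 in control rats, and changed by 0.50 ± 0.12 (adjusted p = 0.029). Rps9, which lies beside that channel, changed by 0.56 ± 0.12 (adjusted p = 0.0103).

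Rps6, the substrate of the S6 kinases downstream of mTORC1, had 9.67, 10.11, 9.96 and 9.97 in rotenone rats, against 9.68, 9.28, 9.35 and 9.59 in control rats. The lowest rotenone value was just under the highest control value, and the change was 0.45 ± 0.10 (adjusted p = 0.0139). Rps18, of the subunit's head, had 15.41, 15.87, 15.88 and 15.51 in rotenone rats, against 15.20, 14.69, 14.74 and 15.30 in control rats, with no overlap and a change of 0.68 ± 0.15 (adjusted p = 0.0126). Rps4x, encoded on the X chromosome, changed by 0.65 ± 0.14 (adjusted p = 0.00965).

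Rps15a (0.71 ± 0.15), Rps14 (0.62 ± 0.16) and Rps3a (0.58 ± 0.12) rose as well, with adjusted p between 0.0108 and 0.0305. Small subunit genes that were not called included Rpsa, also known as the laminin receptor, with a change of 0.47 ± 0.15 (adjusted p = 0.0904), Rps15 with 0.49 ± 0.15 (adjusted p = 0.0875) and Rps27 with 0.55 ± 0.15 (adjusted p = 0.0553). The means of Rps15a and Rps27 lay below the bound. Rps4y2, a dim gene of this name on chromosome 4, was the 1 member with a negative change, -0.62 ± 0.30 (adjusted p = 0.33). It had 5.61, 5.34, 5.59 and 5.13 in rotenone rats and 6.79, 4.94, 6.01 and 6.42 in control rats, all below the bound, and without control rat 2 it was called lower.

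Among proteins of the large subunit, 16 of 44 rose at day 14, with a median change of 0.44. The difference between the subunits was not tested. Rpl23a had the smallest p among them. It had 13.30, 13.78, 13.63 and 13.58 in rotenone rats, against 12.97, 12.79, 12.85 and 13.13 in control rats, with no overlap and a change of 0.64 ± 0.11, or 1.56-fold (adjusted p = 0.00162).

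Rpl37a, a zinc-binding protein, had the largest change of the large subunit. It had 15.75, 16.77, 16.45 and 16.33 in rotenone rats, against 15.81, 15.45, 15.36 and 15.73 in control rats, so rotenone rat 1 lay within the controls. The change was 0.74 ± 0.19 (adjusted p = 0.0388), and the call was lost without 1 array for 6 of the 8 arrays of that day. Its further transcript cluster changed by 0.54 and was not called (adjusted p = 0.122). Rpl9, near the base of the stalk, had 14.23, 14.92, 14.71 and 14.76 in rotenone rats, against 14.22, 13.47, 13.85 and 14.21 in control rats, with no overlap, and changed by 0.72 ± 0.17 (adjusted p = 0.0211).

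The stalk of the large subunit, formed by Rplp0, Rplp1 and Rplp2, recruits the elongation factors. Rplp1 rose, with 17.41, 17.85, 17.70 and 17.89 in rotenone rats and 17.43, 17.17, 16.98 and 17.40 in control rats, a change of 0.47 ± 0.11 (adjusted p = 0.022). Rplp2 had a change of the same size, 0.48 ± 0.14, that did not pass (adjusted p = 0.0713). Rplp0, often used as a reference gene, had 13.88, 14.41, 14.25 and 14.36 in rotenone rats and 14.15, 13.59, 13.69 and 14.07 in control rats. Its change of 0.35 ± 0.14 did not pass (adjusted p = 0.199), and its groups overlapped by rotenone rat 1.

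Rpl5 and Rpl11, which together bind Mdm2 when ribosome assembly fails, both rose. Rpl5 had 8.82, 9.25, 9.14 and 9.11 in rotenone rats, against 8.74, 8.76, 8.47 and 8.77 in control rats, with no overlap and a change of 0.39 ± 0.10 (adjusted p = 0.0307). Rpl11, below the bound, changed by 0.39 ± 0.11 with an adjusted p just under the threshold, and its call was lost without 1 array for 5 of 8 arrays.

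Rpl22 (0.59 ± 0.13), which has a close paralog in mammals, Rpl26 (0.55 ± 0.14), at the tunnel exit and below the bound, Rpl4 (0.52 ± 0.11) and Rpl32 (0.47 ± 0.13) also rose, with adjusted p between 0.0134 and 0.0495. Rpl4 had 16.76, 17.34, 17.22 and 17.21 in rotenone rats at day 14, against 16.85, 16.42, 16.61 and 16.56 in control rats. It thus lay above the controls in 3 of 4 rotenone rats, whereas at day 1 it lay below them in all 4. Uncalled changes of similar size were those of Rpl8 (0.65 ± 0.19, adjusted p = 0.0591), Rpl34 (0.54 ± 0.15, adjusted p = 0.0619), Rpl37 (0.53 ± 0.19, adjusted p = 0.151) and Rpl10, the last protein to join the large subunit (0.49 ± 0.14, adjusted p = 0.0554).

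**Figure D3:**
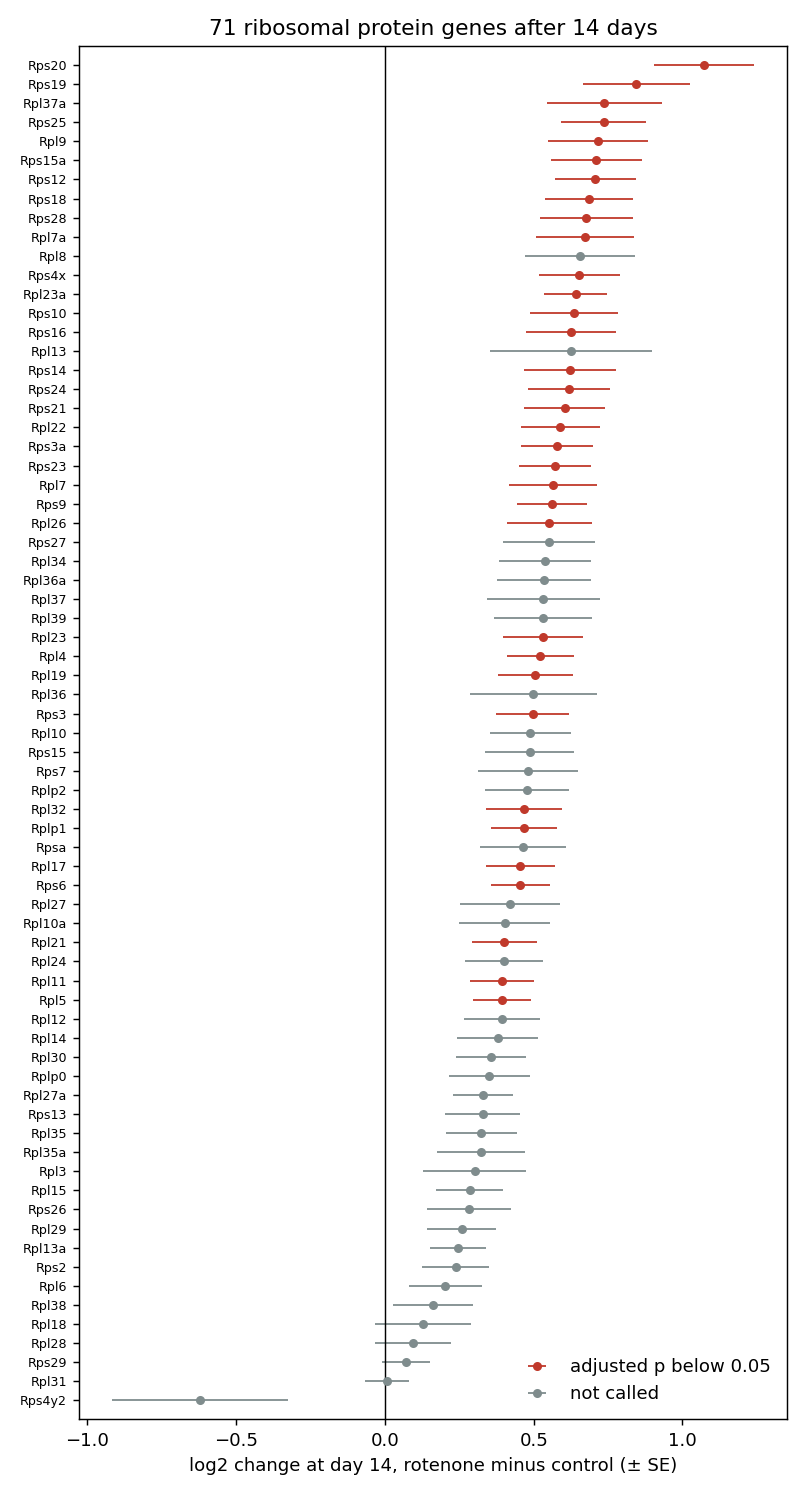
Log2 change at day 14 (rotenone minus control, ± SE of the fit, n = 4 per group) of the 71 genes, largest at the top; red points are called at adjusted p 0.05. Changes run from 1.07 for Rps20 to -0.62 for Rps4y2, and 70 of 71 are above 0.

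A few genes of the large subunit stood near 0 on all days. Rpl31, at the tunnel exit, had 10.12, 10.38, 10.33 and 10.29 in rotenone rats at day 14, against 10.30, 10.31, 10.19 and 10.28 in control rats. Its change was 0.01 ± 0.07 (adjusted p = 0.988), with the smallest SE of the set. Rpl28 had a change of 0.10 ± 0.13 (adjusted p = 0.83), Rpl18 of 0.13 ± 0.16 (adjusted p = 0.816) and Rpl38, which in mice is required for translation of Hox messages, of 0.16 ± 0.13 (adjusted p = 0.67). Rpl18 lay below the bound, so the size of its change is uncertain. Rpl3, at the catalytic centre (0.30 ± 0.17, adjusted p = 0.459), Rpl13a, a silencer of inflammatory messages when released from the ribosome (0.25 ± 0.09, adjusted p = 0.187), and Rpl29 (0.26 ± 0.12, adjusted p = 0.286) were not called either.

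In the small subunit, Rps29 had 19.36, 19.40, 19.55 and 19.34 in rotenone rats at day 14, against 19.35, 19.27, 19.34 and 19.39 in control rats. These overlapped, and the change was 0.07 ± 0.08 (adjusted p = 0.783). Its values lay near the top of the scale, 19.93 log2 units, and 3 further transcript clusters of Rps29 with means of 19.33, 18.18 and 15.77 changed by 0.01, 0.01 and 0.04 at day 14.

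Each rotenone rat at day 3 had 62 to 69 of the 71 genes above the control mean of that day, with median differences of 0.36, 0.37, 0.23 and 0.25. At day 14, 57, 70, 70 and 69 genes were above it in rotenone rats 1 to 4, with median differences of 0.10, 0.69, 0.52 and 0.60. Rat 1 thus had the sign of the others but a smaller difference, and its mean over the genes (11.43) lay within the control range of 11.16 to 11.57. At day 1 the counts were 43, 10, 14 and 28 of 71. The genes moved together from rat to rat inside a group as well: over the 24 arrays, deviations from the group means correlated at a median r of 0.684 between pairs of genes and were positive for 99.7% of pairs. This is a description of genes that share arrays, their scaling and, for some, like sequences.

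**Figure D4:**
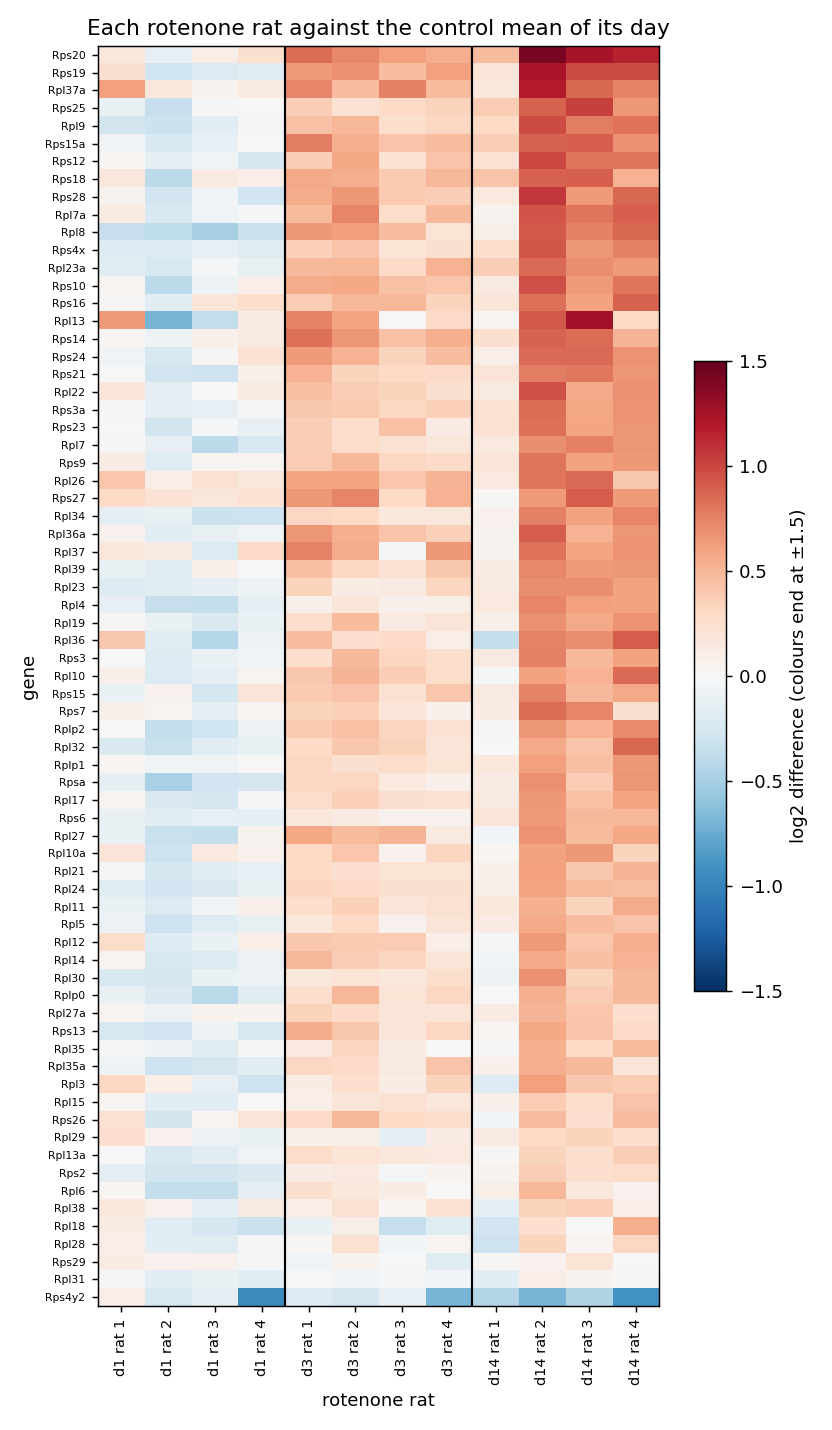
Log2 difference of each of the 12 rotenone rats from the mean of the 4 control rats of its day (columns, rats 1 to 4 at days 1, 3 and 14) for the 71 genes (rows, ordered by change at day 14). At day 14 the column of rat 1 is pale (median difference 0.10) beside those of rats 2, 3 and 4 (0.69, 0.52 and 0.60).

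The size of the change was not shown to differ between the days. A moderated F-test over the 3 differences called 0 of 71 genes (smallest adjusted p = 0.111, for Rpl23a) and 0.0145% of all transcript clusters. An unadjusted p under 0.05 in this test was reached by 46 of the 71 genes. The same held for 4870 of all 68842 transcript clusters and for 1470 of the 11070 above the bound. Without rotenone rat 1 of day 14, the F-test called 10 of the 71 genes. The changes of Rpl23a were -0.13 at day 1, 0.45 at day 3 and 0.64 at day 14.

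Ribosomal protein genes have many near-identical copies in the genome, so which locus a transcript cluster measures is uncertain. The identifier of the transcript cluster named the gene's own RefSeq chromosome for 48 of 71 genes, another chromosome for 9 (Rpl22, Rpl37, Rpl37a, Rps18 and Rps29 among those named) and none for 14 (Rps20, Rps19, Rpl9, Rps4x, Rps14, Rpl8 and Rpl38 among them). At day 14 the median change was 0.47 with 22 of 48 called higher, 0.59 with 5 of 9, and 0.63 with 7 of 14. Transcript clusters left out by the naming rule gave like values: 119 named as pseudogenes had a median of 0.47 with 30 higher, 128 named as numbered copies 0.47 with 33 higher, and 49 further ones of the members themselves 0.45 with 17 higher. Among genes named as risen, the further transcript clusters of Rps19, Rps18, Rps4x, Rpl9, Rpl22 and Rpl32 were called too. Those of Rpl37a (0.54, adjusted p = 0.122) and Rplp1 (0.37, adjusted p = 0.0832) were not. For Rps14, a further one was called (0.57, adjusted p = 0.0425), and that on its own chromosome, below the bound, was not (0.43, adjusted p = 0.064). The 13 genes below the background bound had a median of 0.39, with 5 called higher.

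Of 7 listed genes for ribosome-bound proteins with other names, 4 had values here, and their median change at day 14 was 0.40 with 2 called higher. Fau, which encodes a small subunit protein fused to a ubiquitin-like part, had 13.44 ± 0.25 in rotenone rats and 12.88 ± 0.20 in control rats (SD, n = 4 each), and rose by 0.56 ± 0.12 (adjusted p = 0.0134). Naca, which shields new chains at the exit tunnel, rose by 0.36 ± 0.08 (adjusted p = 0.016) with no overlap. Rack1, a scaffold on the small subunit, changed by 0.44 ± 0.15 (adjusted p = 0.126).

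Of 20 measured genes other than ribosomal proteins whose messages are known from human and mouse cells to have TOP starts, 7 were higher and 1 lower at day 14, with a median change of 0.31. Among those called were Eif4b, which aids unwinding of messages (0.77 ± 0.15, adjusted p = 0.00665), Eif3f, a subunit of an initiation factor (0.69 ± 0.14, adjusted p = 0.00849), Hnrnpa1, an RNA-binding protein (0.66 ± 0.10, adjusted p = 0.000579), and Npm1, a nucleolar chaperone of ribosome assembly (0.62 ± 0.13, adjusted p = 0.0124). Eef2, the factor that moves the ribosome along the message, rose by 0.44 ± 0.11 (adjusted p = 0.0258). Eef1a1, which delivers transfer RNAs, changed by 0.39 ± 0.14 (adjusted p = 0.155) and Tpt1 by 0.11 ± 0.08 (adjusted p = 0.596). The 1 gene that fell was Vim, which encodes a filament protein of fibroblasts and endothelium (-0.80 ± 0.20, adjusted p = 0.0316).

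Of 65 listed genes that build the ribosome, 27 of them above the bound, 3 (4.62%) were higher at day 14. The share was 1.4% of all transcript clusters and 5.11% of those above the bound. Those called were Nob1, an endonuclease of small subunit maturation (0.55 ± 0.12, adjusted p = 0.0121), Eif6, which keeps the subunits apart (0.51 ± 0.11, adjusted p = 0.0108), and Rrp9, of a nucleolar particle (0.35 ± 0.08, adjusted p = 0.0225). The median change was 0.11, with 54 genes positive and 11 negative. At an unadjusted p under 0.05, 18 were higher and 2 lower, where 6315 of all 68842 transcript clusters and 2178 of the 11070 above the bound were higher. Sbds, which helps to release Eif6, was called at day 1 (0.56 ± 0.10, adjusted p = 0.00911) and had changes of 0.23 at day 3 and 0.32 at day 14.

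Mitochondria have ribosomes of their own, with proteins encoded by other nuclear genes. Of 74 genes for mitochondrial ribosomal proteins, 0 were called higher by limma and 1 lower at day 14, with 2 higher and 10 lower at an unadjusted p under 0.05. Their median change was -0.08 at day 1, 0.06 at day 3 and -0.07 at day 14. At day 14 their changes were positive in 19 of 74 genes, against 70 of 71 for the cytosolic set.

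**Figure D5:**
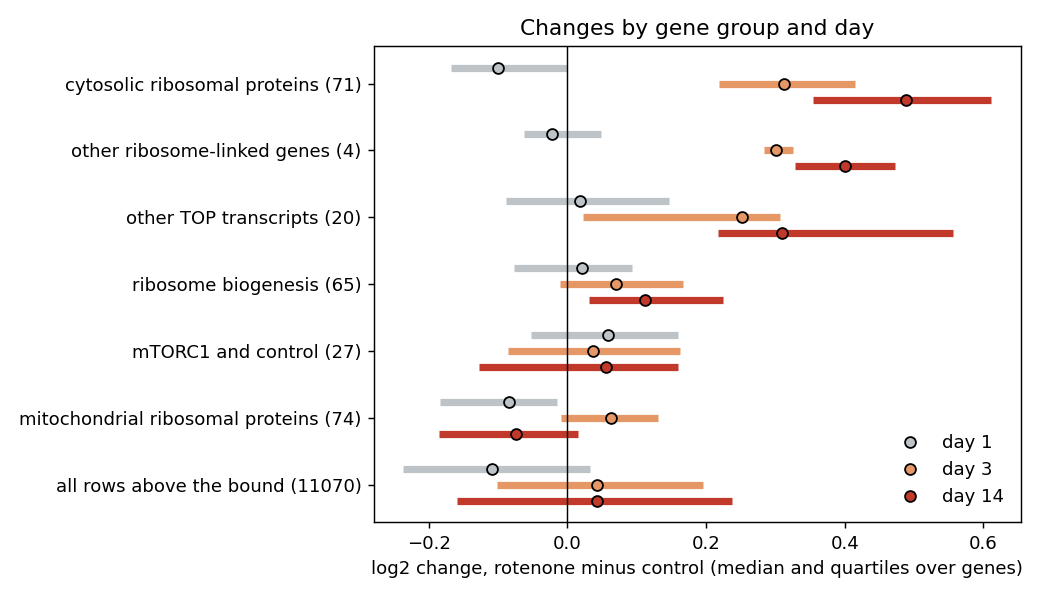
Median (points) and quartiles (bars) over genes of the log2 change (rotenone minus control) at days 1, 3 and 14, for the 71 ribosomal protein genes, related groups and all transcript clusters above the bound, with the number of genes in brackets. The cytosolic set has medians of -0.10 (0.01 with quantile normalization), 0.31 and 0.49, and the mitochondrial ribosomal proteins -0.08, 0.06 and -0.07.

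Of 27 measured genes of mTORC1 and its control of TOP messages, 2 were lower and 0 higher at day 14 in limma's test, with 1 higher at an unadjusted p under 0.05. On that day 1.49% of all transcript clusters were called lower, and 599 of the 11070 above the bound, a share near that of these 27 genes. Of the 27, 16 lay above the bound. Sesn3, of a protein family that restrains mTORC1, was lower on all 3 days. It had 10.44 ± 0.07 in rotenone rats and 10.90 ± 0.18 in control rats at day 1 (SD, n = 4 each), with changes of -0.46 ± 0.10 at day 1, -0.94 ± 0.10 at day 3 and -0.85 ± 0.10 at day 14 (adjusted p = 0.048, 0.00012 and 9.8e-05). Its values did not overlap on any day. Deptor, a subunit that inhibits mTOR, fell by 0.87 ± 0.21 at day 14 (adjusted p = 0.0266), and Maf1, a repressor of RNA polymerase III, rose at day 3 (0.54 ± 0.11, adjusted p = 0.0188). Mtor itself changed by -0.13 ± 0.10 (adjusted p = 0.618) and Larp1 by -0.14 ± 0.09 (adjusted p = 0.534) at day 14.

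Markers of other cell types moved on the same days as the ribosomal protein genes. All 7 erythroid genes fell at day 14 and 2 of 7 at day 3. The mean over this list was 7.04 to 10.37 log2 units in rotenone rats at day 14, against 11.74 to 13.21 in control rats, and the summed intensity was 6145 to 270600 in rotenone rats and 669800 to 1100000 in control rats. The highest of these rotenone list means, 10.37, was that of rat 1, which had the lowest ribosomal protein mean of the 4. The lowest, 7.04, was that of rat 4, whose ribosomal protein mean (11.89) lay under that of rat 2 (12.03). Among the control rats of day 14, rat 2 was lowest in both, at 11.74 and 11.16. Control rat 3 had the highest erythroid list mean, 13.21, and a ribosomal protein mean of 11.18. A link between the erythroid and the ribosomal protein means was not tested. Of 6 fibroblast genes 3 fell at day 3 and 3 at day 14, where the list mean was 10.18 to 10.50 in rotenone rats and 11.39 to 11.90 in control rats. Single changes of these 6 genes ran from -3.16 to 0.43 at day 14, and 1 was higher at an unadjusted p under 0.05. Of 6 cycling genes, all below the bound, 3 fell at day 3 and 3 at day 14. None of 6 leukocyte, 6 smooth muscle and pericyte or 5 endothelial genes was called on any day by limma, and 1, 0 and 3 of them reached an unadjusted p under 0.05 at day 14. In whole tissue, fewer cells of a type and less RNA per cell cannot be told apart, and the part of cell makeup in the ribosomal protein changes was not tested.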

How the data were processed

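The deposited intensities, 1 linear value per transcript cluster and array, were made by the authors with RMA after a signal space transformation and a correction for GC (software versions, genome build and annotation release: not given in the sources used here). RMA scales the arrays to one another, so a change is relative to the other transcripts of the array. The deposited values were not fully alike in distribution. Their array medians ran from 4.94 to 5.19 log2 units, and the 34 calls of day 14 became 5 with equal array medians and 22 with quantile normalization. Of 70580 array entries, 68842 that were no control probe (1738 were) entered the tests as log2, with no filter on dim ones. Gene names came from the platform annotation, with RefSeq GRCr8 for chromosomes and promoters.

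One mean per group over all 24 arrays was fitted with limma 3.58.1 in R 4.3.3 (lmFit, eBayes), with version 1.17.8 of the data.table package, and each rotenone group was set against the control of its day. The SE pools the spread of all 6 groups. Figures used matplotlib 3.10.9 and pandas 2.3.3 in Python 3.11.15. The fitting script was tested on simulated data.

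Per day, up to 12 called members, the 5 largest changes each way and genes of known role were named, with up to 4 called genes per list; Rps27a and Rpl41 (2 role genes) are not reported. The members and lists were chosen with earlier results of these data known. Alternatives were other scalings, an intensity filter, the mean of a gene's transcript clusters, other variance models, array weights, a replicate block, fewer arrays and a 1.8-fold minimum. After the data were seen, equal medians of bright transcript clusters and members only above the bound or only on their own chromosome were added. That the 4 rats of a group are separate animals is stated by the labels.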

Additional observations from a re-analysis of the deposited data

Results flagged for a closer look

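In 8 cases among the named genes, 1 rat of a group of 4 lay far from the other 3, as judged by its gap to the nearest value against the group's range. Chance gives such a gap in about 1 in 20 groups. The 41 named genes and the mean of the 71 genes were each examined in 6 groups, so this many cases can arise by chance. At day 3, rotenone rat 3 had 13.09 log2 units for Rpl23a, where the other 3 rats had 13.29 to 13.31, and 8.524 for Rpl29, where the others had 8.749 to 8.787. Rotenone rat 2 of day 3 had 16.87 for Rpl4, with the others at 16.76 to 16.77. Rotenone rat 2 of day 1 had 14.55 for Rps18, with the others at 15.04 to 15.11. At day 14, control rat 3 had 15.03 for Rpl32, with the others at 15.27 to 15.31, and 8.474 for Rpl5, with the others at 8.742 to 8.771. At day 1, control rat 4 had 7.757 for Rps15, with the others at 8.101 to 8.151, and control rat 3 had 7.103 for Rps15a, with the others at 7.294 to 7.305.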

How the results depend on the processing

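The median change of the ribosomal protein genes kept its sign at days 3 and 14 under all alternatives run, and at day 14 34 calls became 5 with equal array medians, 22 with quantile normalization, 0 with only the 8 arrays of the day and 1 at a minimum of 1.8-fold, but 48 with array weights, 39 with trend and robust variances, 39 with equal medians of bright transcript clusters and 44 of 58 with the intensity filter (29 of these 58 without it). The share of all transcript clusters called higher at day 14 moved too, from 1.4%. It was 0.459% with equal array medians, 1.5% with quantile normalization, 0.045% with only the 8 arrays and 0.309% at 1.8-fold. It was 2.16% with array weights, 1.83% with trend and robust variances and 1.41% with equal medians of bright transcript clusters. With the filter it was 13.5% of those kept. Of the 48 on their own chromosome, 22 were called, as in the full set. With each array left out in turn the counts were 0 at day 1, 0 to 1 at day 3 and 6 to 54 at day 14. In these fits 0.514% to 2.56% of all transcript clusters were called higher at day 14. At day 3 the 1 call became 0 with equal medians, with only 8 arrays and at 1.8-fold, 2 with quantile normalization, 11 of 58 above the bound, 3 with trend and robust variances and 4 with array weights. The F-test between days called 2 members with the filter, 1 with array weights and 0 to 10 with an array left out. Over all transcript clusters, 337, 578 and 1989 were called at days 1, 3 and 14. Equal medians gave 365 at day 3 and 1265 at day 14, the filter 695 and 998 at days 1 and 3, only 8 arrays 68, 123 and 118, and the 1.8-fold minimum 128, 232 and 513. Leaving out arrays gave 172 to 282, 301 to 500 and 885 to 3225. The share of higher calls among these at day 14 was 48.47%, and 24.98% with equal medians; at day 1 it was 40.65%, and 61.64% with quantile normalization and 66.67% with equal medians of bright transcript clusters. The cause was not tested.

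Rats with the same number did not deviate together (r from -0.173 to 0.122, over 0.1 in 1 of 12 pairs), so the numbers were not taken as pairs. With the replicate block the calls were 0 at day 3 and 27 at day 14. No named gene changed sign while called. With 4 rats per group, the smallest change called at day 14 among the 71 genes was 0.39, and the 13 dim genes carry the least certain sizes.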

Other observations

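Rpl3l, which replaces Rpl3 in the ribosomes of heart and skeletal muscle, had 13.31 ± 0.16 log2 units in rotenone rats and 13.39 ± 0.27 in control rats at day 14 (SD, n = 4 each). Its changes were -0.24 at day 1, 0.24 at day 3 and -0.08 at day 14, each with SE 0.13, and it was not called on any day (adjusted p = 0.668, 0.568 and 0.864). Over the 7 measured genes of such like-named copies, 0 were called at day 14 by limma, 1 was higher at an unadjusted p under 0.05 and the median change was 0.03. A difference between these and the ribosomal protein genes was not tested.

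Genes of ribosome quality control and turnover showed no call. Of 17 measured, 0 passed at any of the 3 days in limma, with 1, 5 and 8 at an unadjusted p under 0.05 at days 1, 3 and 14. At day 14 these were 3 higher and 5 lower, and the median change over the 17 was 0.02. On that day 10151 of all 68842 transcript clusters and 3764 of the 11070 above the bound reached such a p.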
